A study of Homo sapiens with 8 samples.

Results

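The genes described are 9 variant histone genes that a cell can transcribe outside DNA replication: the linker histone gene H1FX, the H2A variant genes H2AFX, H2AFZ, H2AFV, H2AFY, H2AFY2 and H2AFJ, and the H3 variant genes H3F3A and H3F3B. They were taken by symbol from a table of 23368 gene symbols, in the older names that the table uses, and all 9 were found. RNA had been sequenced in 8 libraries of HEK293F, a human cell line of embryonic kidney origin that is widely used for transfection. In 3 libraries the cells had received a single transfection of myc-tagged MOV10 (overexpression), in 2 libraries siRNA against MOV10 (knockdown), and in 3 libraries an irrelevant siRNA (control), each siRNA 3 times at intervals of 24 h. MOV10 is an RNA helicase with known roles in mRNA regulation together with FMRP and Argonaute. The overexpression cells received a plasmid and no siRNA, and empty-plasmid cells were not analysed here, so the delivery and the rise of MOV10 cannot be told apart in that comparison.

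Most histones are made in S phase from mRNAs that end in a stem-loop in place of a poly(A) tail. The variant genes lie outside the large histone clusters and make polyadenylated mRNAs, and their proteins replace the standard histones in chromatin at any stage of the cell cycle. H2A.Z (from H2AFZ and H2AFV) and H3.3 (from H3F3A and H3F3B) mark active promoters and regulatory regions, macroH2A (from H2AFY and H2AFY2) is enriched in silent chromatin, H2A.X (from H2AFX) is phosphorylated at DNA breaks, and linker histones bind the DNA between nucleosomes.

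In the GENCODE 29 transcripts, H2AFX carried the features of both kinds of mRNA end. A histone stem-loop was searched in the coding transcripts of all 9 genes because it separates replication-dependent from replication-independent histone mRNAs. It was found in H2AFX alone, on chromosome 11, and is printed with 5 bases on either side and the stem-loop in capitals.
H2AFX stem-loop: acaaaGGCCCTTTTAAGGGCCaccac
The annotated H2AFX transcript ran on for 1044 bases past this site and held a poly(A) signal, AATAAA or ATTAAA, in its last 50 bases. Of 71 genes with a name in HIST and a coding transcript, 32 held a stem-loop under the same search (45.1%). AATAAA itself lay in the last 50 bases of the single coding transcript of H1FX, H2AFZ and H2AFJ.

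Both H2A.Z genes are shown upstream of the start because they encode nearly the same protein and only one of them, H2AFV, was called in the comparisons with control. The 250 bases before each start are given from RefSeq on GRCh38.p14, 5′ to 3′ on the minus strand, at chr4:99950276-99950525 for H2AFZ and chr7:44848088-44848337 for H2AFV. Capitals mark CCAAT and TATAAA, read on both strands (CCAAT then appears as ATTGG).
H2AFZ: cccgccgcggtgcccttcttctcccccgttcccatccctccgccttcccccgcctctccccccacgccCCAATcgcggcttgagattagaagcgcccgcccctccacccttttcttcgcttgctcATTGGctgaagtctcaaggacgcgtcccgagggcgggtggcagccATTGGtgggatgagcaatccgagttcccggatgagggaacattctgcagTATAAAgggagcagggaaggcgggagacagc
H2AFV: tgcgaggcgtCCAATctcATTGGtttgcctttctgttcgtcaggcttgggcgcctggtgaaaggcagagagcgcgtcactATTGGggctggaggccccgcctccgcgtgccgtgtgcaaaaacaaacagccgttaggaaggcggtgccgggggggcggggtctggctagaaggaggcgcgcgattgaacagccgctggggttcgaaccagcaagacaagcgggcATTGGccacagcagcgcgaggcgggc
H2AFZ held 3 matches to CCAAT and 1 to TATAAA, the latter starting 31 bases before the start of transcription. H2AFV held 4 matches to CCAAT and 0 to TATAAA. Among 35116 upstream windows of this length in RefSeq, 32.0% held CCAAT and 10.7% held TATAAA, and neither motif overlaps the other. TATAAA was also found before H1FX, H2AFX and H3F3B, and not before H2AFY, H2AFY2, H2AFJ and H3F3A. These matches describe letters in a window, binding there was not measured, and their part in the calls was not tested.

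Each library held between 12.7 M and 32.8 M counted reads. MOV10 stood at 2971, 2916 and 2454 CPM (counts per 1 M counts of the library after TMM scaling) in the overexpression libraries, at 50.6 and 55.5 CPM in the knockdown libraries, and at 76.8, 76.4 and 91.2 CPM in the control libraries. Each library stood where its label places it, and the log2 fold change with knockdown was -0.62 ± 0.08 (adjusted p = 8.84e-06, edgeR). All 10 markers fixed for the HEK293 lineage were detected, with VIM the most abundant, and summed to 1275 to 1323 CPM with overexpression, 1650 to 1718 CPM with knockdown and 1420 to 1444 CPM in control. Of 7 markers of adult tubule and podocyte, UMOD and AQP2 had no read in any library, and the list summed to 45.6 to 52.3 CPM with overexpression, 36.7 to 41.5 CPM with knockdown and 32.5 to 34.3 CPM in control, most of it LRP2; its part in the results was not tested. Markers of blood and of endothelium summed to less than 3 CPM in each library, and 7 fibroblast markers to 67.3 to 75.2 CPM with overexpression, 51.1 to 52.9 CPM with knockdown and 66.1 to 71.3 CPM in control, most of it COL1A1. Of the 7 fibroblast markers 5 were tested, among them DCN at a mean of 0.569 CPM with overexpression and 0.234 CPM in control. DCN passed the filter on low counts close to its limit, so no count of calls is given for this list. On the log2 scale COL3A1 (1.17 ± 0.23), LUM (0.78 ± 0.13) and PDGFRA (0.68 ± 0.13) rose with overexpression. COL1A1 averaged 56.5 CPM with overexpression and 59.0 CPM in control. With knockdown PDGFRA rose (0.49 ± 0.14) and COL1A1 fell (-0.53 ± 0.07). The part of these markers in the results was not tested. The labels do not state whether replicates were separate cultures, so the p-values reflect the variation among these 8 libraries alone, and that variation may be technical.

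Per length, H2AFZ had the highest level of the 9 genes in each group. On the scale of RPKM (the CPM divided by the kilobases of annotated exon), H2AFZ averaged 379.5 ± 12.3 with overexpression (SD, n = 3), 373 ± 6.74 with knockdown (n = 2) and 370.3 ± 9.74 in control (n = 3). In control the order below it was H3F3B (245 ± 2.52), H1FX (219 ± 3.08), H2AFY (157 ± 2.42), H2AFX (117 ± 2.23), H2AFV (55.2 ± 1.65) and H2AFY2 (24.3 ± 0.311), all in RPKM. No neighbours in this control order overlapped between libraries. With overexpression the libraries of H1FX (252 ± 31.6 RPKM) overlapped with those of H3F3B (245 ± 8.64 RPKM), and those of H2AFY (116 ± 5.57 RPKM) with those of H2AFX (101 ± 9.06 RPKM). With knockdown the order was that of control, with no overlap between neighbours. H2AFJ was at the bottom with H3F3A. These lengths are unions of annotated exons from another release than the counts, so the levels are approximate wherever a gene uses only part of them.

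Both genes at the bottom were near the limit of counting and were not tested. H2AFJ, whose protein is known to accumulate in senescent cells, had 7, 9 and 4 reads with overexpression, 7 and 6 with knockdown, and 10, 5 and 6 in control. H3F3A was listed at 0, 0 and 1 reads with overexpression, 2 and 0 with knockdown, and 2, 0 and 0 in control. That is at or under a floor of 3 reads per library, which corresponds to 0.0951 to 0.230 CPM, so no fold is given. H3F3A encodes the same H3.3 protein as H3F3B, which had 9564 to 25282 reads per library. In the GENCODE transcripts, which are from another release than the counts, 11.7% of the 50-base words of H3F3A also occur in other genes. The pseudogenes H3F3AP4 and H3F3AP6 lead these, and copies that differ by single bases are not seen by this search. H3F3AP4 was listed at 0 reads in each library as well. How reads from such copies were treated is not given in the sources used here, and its part in the level listed for H3F3A was not tested.

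With MOV10 overexpression, 2 of the 7 tested genes rose (H1FX and H2AFY2), 3 fell (H2AFV, H2AFY and H2AFX), and H2AFZ and H3F3B were not called. Called means an adjusted p under 0.05 in the quasi-likelihood test of edgeR, with p-values adjusted over 15254 genes by Benjamini-Hochberg. The 5 called of 7 stand beside 49.2% of all tested genes called in this comparison, 25.2% higher and 24.1% lower. Libraries of both groups did not overlap for the same 5 genes, against 56.0% of all tested genes (28.5% higher and 27.5% lower). The median log2 fold change of the 7 genes was 0.00, and that of all tested genes was 0.01. The question asked by this comparison is which transcripts change when MOV10 is abundant.

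**Figure D1:**
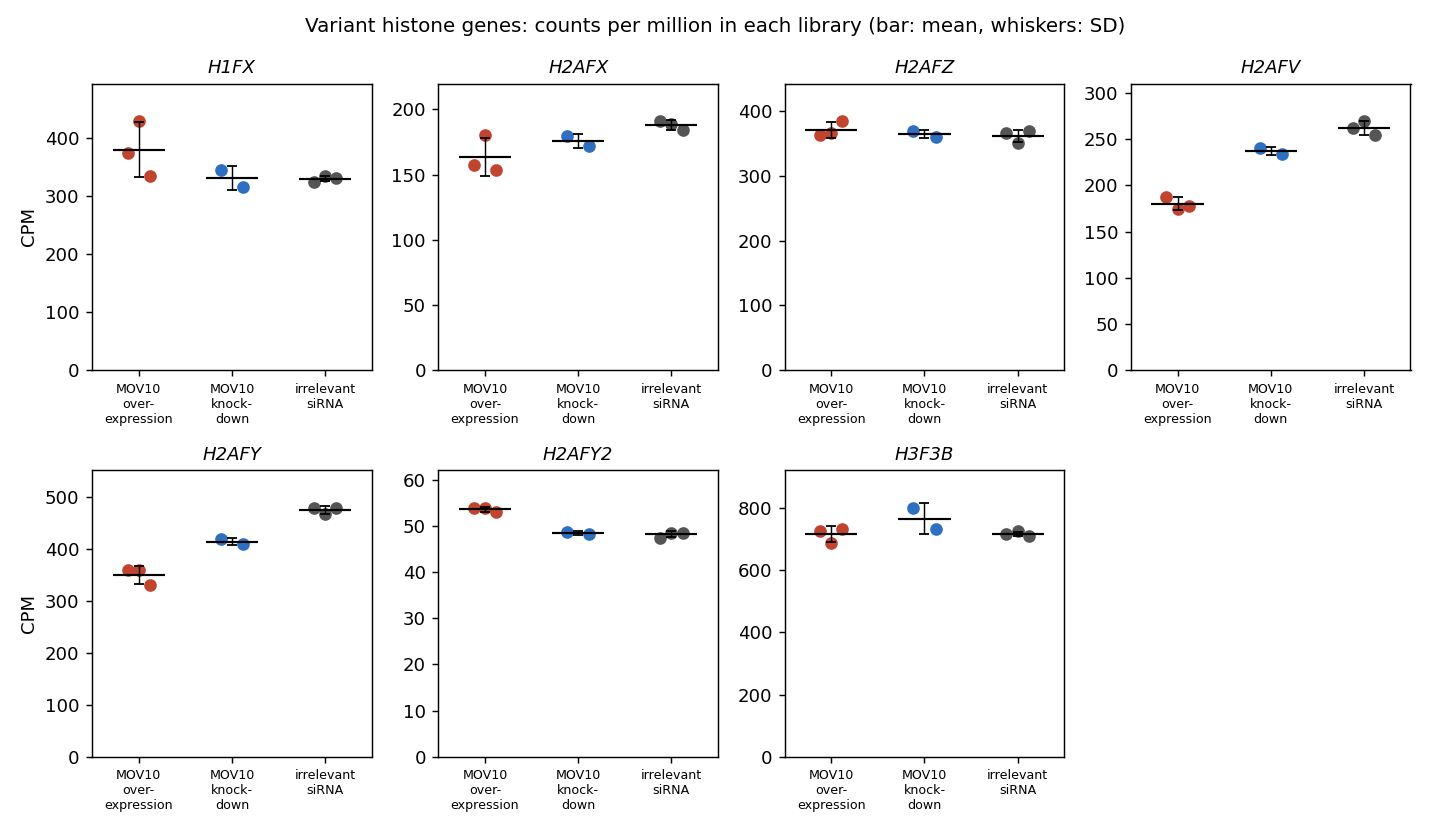
Level of each tested variant histone gene (CPM, linear axes from 0) in the libraries with MOV10 overexpression (3), MOV10 knockdown (2) and irrelevant siRNA (3). Points are libraries, bars the group mean and whiskers the SD. H2AFV, H2AFY and H2AFX are below every control library with overexpression and with knockdown, and H2AFX was not called with knockdown.

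H1FX, a linker histone gene that is expressed in most cell types, rose slightly with overexpression. It stood at 375, 429 and 335 CPM with overexpression and at 325, 334 and 331 CPM in control. Replicate 3 of the overexpression libraries lay just above the highest control library, and replicate 2 well above it. The log2 fold change was 0.20 ± 0.06 (adjusted p = 0.0113, edgeR), and without overexpression replicate 2 it was 0.11 with an adjusted p of 0.0718.

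H1FX shares 17.2% of its 50-base words with the overlapping antisense gene H1FX-AS1. The libraries were stranded by kit, but the strand setting of the counting is not given in the sources used here, so reads of both genes cannot be told apart with certainty. H1FX-AS1 stood at 15.8, 13.8 and 12.3 CPM with overexpression, at 7.80 and 8.35 CPM with knockdown and at 8.91, 9.37 and 10.2 CPM in control. It rose with overexpression by 0.59 ± 0.10 on the log2 scale (adjusted p = 6.70e-05, edgeR). Its whole level was small beside that of H1FX.

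Of the H2A.Z genes, H2AFV fell with overexpression and H2AFZ was not called. H2AFV stood at 188, 175 and 178 CPM with overexpression and at 262, 270 and 254 CPM in control, with a clear gap between the groups. Its log2 fold change was -0.54 ± 0.05, which left 0.688 of the control level (adjusted p = 1.96e-08, edgeR). H2AFZ stood at 363, 366 and 385 CPM with overexpression and at 366, 352 and 369 CPM in control, and these ranges overlapped. Its log2 fold change was 0.03, with a 95% interval from -0.06 to 0.13 (adjusted p = 0.532, edgeR). The interval leaves room for a rise of up to 0.13, and does not reach the fall of H2AFV.

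The macroH2A genes moved in opposite directions. H2AFY, the main source of macroH2A mRNA in these cells, stood at 358, 360 and 330.0 CPM with overexpression and at 479, 466 and 479 CPM in control. All 3 overexpression libraries were below every control library, and the log2 fold change was -0.44 ± 0.04 (adjusted p = 1.54e-07, edgeR). H2AFY2 stood at 53.9, 53.8 and 52.9 CPM with overexpression and at 47.4, 48.5 and 48.5 CPM in control. The gap between its groups was narrow but so was the spread, and the log2 fold change of 0.15 ± 0.05 had an adjusted p of 0.0215 by edgeR. With DESeq2 the adjusted p of H2AFY2 was 0.0516, with no filter on low counts 0.0580, and without overexpression replicate 1 or any one control library 0.0519 to 0.0807. H2AFY shares 24.5% of its 50-base words with C5orf66 and AC026691.1, and counts of its splice forms, which differ in their macro domain, cannot be separated in a table by gene.

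H2AFX fell slightly with overexpression and H3F3B was not called. H2AFX stood at 157, 180.4 and 153 CPM with overexpression and at 191, 189 and 184 CPM in control. Overexpression replicate 2 lay near the control libraries and the other two lay further below. The log2 fold change was -0.20 ± 0.06 (adjusted p = 0.00539, edgeR). H3F3B stood at 728, 687 and 734 CPM with overexpression and at 717, 725 and 710.4 CPM in control, with overlapping ranges. Its log2 fold change was 0.00, with a 95% interval from -0.09 to 0.09 (adjusted p = 0.968, edgeR). Against a fold of 1.2, only H2AFV and H2AFY of the 7 passed, and 2350 of all tested genes did.

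With MOV10 knockdown H2AFV and H2AFY fell and 5 of the 7 tested genes were not called. The share of all tested genes called in this comparison was 39.0%, with 19.9% higher and 19.1% lower. Scaling by library totals alone gave 2353 higher and 3611 lower genes in place of 3036 and 2907, with the same numbers of variant histone genes called. Libraries did not overlap for 4 of the 7 genes, against 63.7% of all tested genes. The median log2 fold change of the 7 was 0.00, against 0.00 over all tested genes. This comparison uses the same control libraries as the one with overexpression, so a gene that was high or low in control by chance shifts both.

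H2AFY stood at 418 and 409 CPM with knockdown, against 479, 466 and 479 CPM in control. The groups were apart, with a log2 fold change of -0.20 ± 0.05 (adjusted p = 0.00340, edgeR). H2AFV stood at 241 and 234 CPM with knockdown, against 262, 270 and 254 CPM in control. Its log2 fold change was -0.14 ± 0.05 (adjusted p = 0.0328, edgeR). That call was less secure than that of H2AFY: leaving out either knockdown library or control replicate 1 or 2 gave an adjusted p from 0.0888 to 0.199. None of the 7 genes passed against a fold of 1.2 in this comparison, by edgeR, where 1700 of all genes did.

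The other genes had no call with knockdown. H1FX stood at 346 and 316 CPM with knockdown, on either side of the control libraries (325 to 334 CPM), and its 95% interval ran from -0.14 to 0.15 on the log2 scale. H2AFZ (370.1 and 361 CPM) and H2AFY2 (48.7 and 48.1 CPM) were within or beside their control ranges of 352 to 369 and 47.4 to 48.5 CPM. Their 95% intervals were -0.09 to 0.11 and -0.11 to 0.13. H2AFX stood at 179.7 and 172 CPM, below each control library (184 to 191 CPM), with a log2 fold change of -0.10 ± 0.06 and an adjusted p of 0.22 by edgeR. H3F3B stood at 802 and 732 CPM, above each control library (710.4 to 725 CPM), with a log2 fold change of 0.10 ± 0.05 and an adjusted p of 0.131. In a fit of only the knockdown and control libraries, H2AFX and H3F3B were called as well, with adjusted p-values of 0.0399 and 0.0237 by edgeR. Their log2 fold changes stayed at -0.10 and 0.10 there, and over all genes 7406 were called in place of 5943. H3F3B was also called without knockdown replicate 3 (adjusted p = 0.0494) or overexpression replicate 3 (0.0408). Without knockdown replicate 2 its log2 fold change was 0.03 (adjusted p = 0.816, edgeR).

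**Figure D2:**
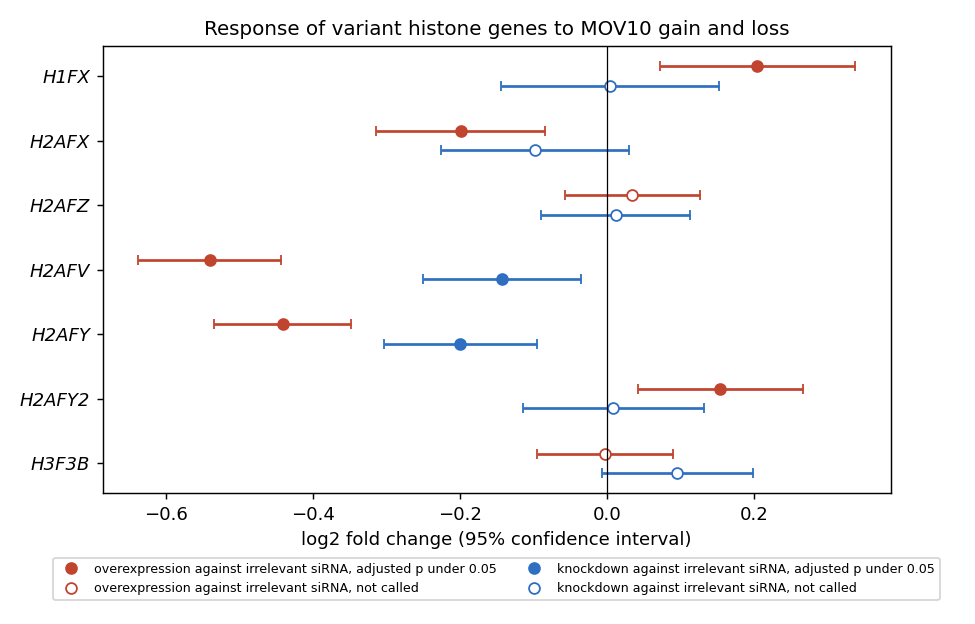
Log2 fold changes with 95% confidence intervals of the 7 tested genes, for overexpression against control (red) and knockdown against control (blue); filled points have an adjusted p under 0.05. H2AFV lies at -0.54 with overexpression and -0.14 with knockdown, H2AFY at -0.44 and -0.20, and both comparisons share the control libraries.

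Overexpression was also set directly against knockdown, which tests whether the responses differ and does not use the level in control. H1FX and H2AFY2 were higher with overexpression and H2AFV and H2AFY were lower, 4 of 7 genes against 57.4% of all tested genes (29.3% higher and 28.1% lower). Libraries did not overlap for 3 of the 7, against 69.1% of all tested genes (35.4% higher and 33.7% lower). By library totals alone 5709 of all genes were higher and 3001 lower, in place of 4467 and 4289, and the median of all genes moved to 0.10 on the log2 scale, with 4 of the 7 still called. H2AFV differed by -0.40 ± 0.05 on the log2 scale (adjusted p = 1.86e-06, edgeR) and H2AFY by -0.24 ± 0.05 (adjusted p = 0.000328). Only H2AFV of the 7 passed against a fold of 1.2, by edgeR. H1FX differed by 0.20 ± 0.07 (adjusted p = 0.0208), and not without knockdown replicate 3 (0.219) or overexpression replicate 2 (0.101). H2AFY2 differed by 0.15 ± 0.06 (adjusted p = 0.0389), a call that was lost without any one library other than overexpression replicates 2 and 3, with adjusted p-values from 0.0509 to 0.151, and with RLE factors (0.0513) or DESeq2 (0.0930). For H2AFX, H2AFZ and H3F3B the adjusted p-values were 0.164, 0.708 and 0.0942. H2AFX was called without overexpression replicate 2 (0.00769), and H3F3B without knockdown replicate 3 (0.0312) or overexpression replicate 3 (0.0198). Without knockdown replicate 2 the difference of H3F3B was -0.03 (adjusted p = 0.714, edgeR).

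Ratios between related genes within a library do not depend on the scaling, and the groups stood apart in both pairs tested. The count ratio of H2AFZ to H2AFV was 1.93, 2.10 and 2.16 with overexpression, 1.54 and 1.54 with knockdown, and 1.40, 1.30 and 1.45 in control. Each treated library was above each control library. The difference in the mean log2 ratio was 0.58 for overexpression against control and 0.15 for knockdown against control, with exact permutation p-values of 0.10 and 0.20 (two-sided). Neither design can go below 0.10, so no p under 0.05 was possible.

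The count ratio of H2AFY to H2AFY2 was 6.65, 6.69 and 6.23 with overexpression, 8.59 and 8.50 with knockdown, and 10.1, 9.61 and 9.87 in control. The overexpression libraries were lowest and the knockdown libraries in between, with no overlap. The mean log2 ratio differed by -0.60 for overexpression against control and by -0.21 for knockdown against control, each with an exact permutation p of 0.10. No ratio of H3F3A to H3F3B is given, because H3F3A was listed at 0 in 5 libraries.

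**Figure D3:**
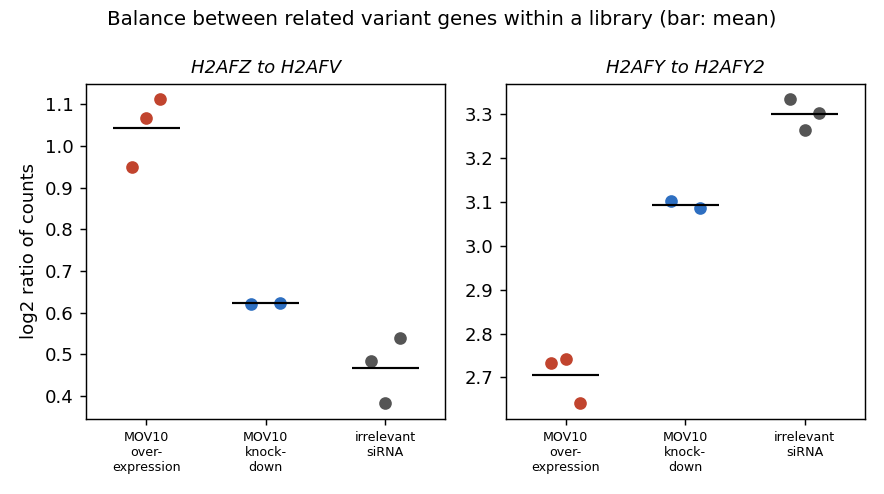
Log2 ratio of read counts between related variant genes within each library (points) with the group mean (bar), for MOV10 overexpression, MOV10 knockdown and irrelevant siRNA; axes do not start at 0. H2AFZ to H2AFV averages 1.04, 0.62 and 0.47 in these groups, and H2AFY to H2AFY2 averages 2.71, 3.09 and 3.3.

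By the rule for likeness, genes were ranked by Pearson correlation of log2 CPM over the 8 libraries, searching 7530 genes whose mean log2 CPM was 5 or more, with the called gene of largest fold change in each comparison. For H2AFV, which had it with overexpression, the top genes were SPHK2 (0.994), FAM168B (0.994), ARFGEF2 (0.993), NOL10 (0.991) and PIP4K2B (0.990). Their log2 fold changes with overexpression ran from -0.64 for SPHK2 to -0.30 for NOL10, and with knockdown from -0.10 to -0.07. For H2AFY, which had it with knockdown, they were SNX12 (0.998), DNAJC5 (0.997), RAB5B (0.996), WDR5 (0.994) and BAP1 (0.994). Their log2 fold changes with overexpression ran from -0.71 for DNAJC5 to -0.33 for RAB5B, and with knockdown from -0.32 to -0.15. The 8 points fall in the same 3 groups, so these correlations describe a common pattern of group levels.

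Genes for the proteins that place variant histones in chromatin are given as counts of calls, to be read against all tested genes, of which 25.2% were higher and 24.1% lower with overexpression and 19.9% higher and 19.1% lower with knockdown. Of 20 measured genes of H2A.Z exchange, which are subunits of the SRCAP, p400/TIP60 and INO80 remodellers and the H2A.Z remover ANP32E, 14 fell and 0 rose, with a median log2 fold change of -0.17, against 0.01 over all tested genes. By library totals alone 8 fell and 0 rose. KAT5, the acetyltransferase of TIP60, was at -0.42 ± 0.05, and the ATPase gene RUVBL1 and the actin-related gene ACTL6A were at -0.31 ± 0.04 and -0.28 ± 0.05. With knockdown 9 of the 20 rose and 1 fell, with a median of 0.07 against 0.00 over all genes (9 and 3 by library totals alone). ING3 and EPC1, both of TIP60, rose by 0.51 ± 0.06 and 0.56 ± 0.07, and the gene that fell was ANP32E (-0.61 ± 0.06). In overexpression set directly against knockdown, 15 of the 20 were lower and 2 higher, against 28.1% and 29.3% of all tested genes. By library totals alone 13 were lower and 2 higher.

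Of the 8 measured genes of H3.3 deposition, 4 fell and 2 rose with overexpression (median -0.14; 4 and 2 by library totals alone). HIRA, the chaperone that places H3.3 in active genes, was at -0.47 ± 0.05, while its partner gene UBN2 was at 0.48 ± 0.06 and ATRX, a remodeller that places H3.3 at telomeres and repeats, at 0.36 ± 0.06. With knockdown 3 rose and 0 fell (median 0.15), namely ATRX (0.26 ± 0.07), UBN1 (0.20 ± 0.06) and ASF1A (0.21 ± 0.07). Among 15 other histone chaperones, 12 fell and 1 rose with overexpression (median -0.23; 10 and 1 by library totals alone), with NAP1L4 at -0.39 ± 0.04, the CAF-1 subunit gene CHAF1B at -0.47 ± 0.05 and the FACT subunit gene SSRP1 at -0.29 ± 0.04. With knockdown 5 rose and 1 fell (median 0.07). NAP1L1 and SUPT6H rose, both by 0.38 ± 0.05, and CHAF1B fell again (-0.39 ± 0.06).

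For the kinases, readers and phosphatases of H2A.X, 4 of 14 rose and 5 fell with overexpression (median -0.07), beside 25.2% and 24.1% of all genes. With knockdown 5 rose and 1 fell (median 0.08), beside 19.9% higher and 19.1% lower of all genes. By library totals alone 3 rose and 2 fell with knockdown. The phosphatase gene PPM1D, a p53 target that acts on phosphorylated H2A.X, rose by 0.47 ± 0.06 with overexpression and by 0.60 ± 0.06 with knockdown. RAD50, of the complex that senses DNA breaks, was at -0.38 ± 0.05 and -0.21 ± 0.06, BAZ1B at -0.26 ± 0.04 with overexpression, and the kinase gene ATR rose by 0.47 ± 0.06 with knockdown.

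Genes of replication and of mitosis are given beside these as markers of the cell cycle. Their counts are to be read against all tested genes, of which 25.2% were higher and 24.1% lower with overexpression. With knockdown these shares were 19.9% and 19.1%. Of 17 replication and S phase genes, 12 fell and 0 rose with overexpression (median -0.17), with MCM7 at -0.25 ± 0.05, RRM2 at -0.23 ± 0.05 and RRM1 at -0.21 ± 0.04. With knockdown 6 fell and 1 rose (median -0.09), led by E2F1 (-0.61 ± 0.06), RRM2 (-0.45 ± 0.05) and PCNA (-0.35 ± 0.05). Of 13 mitotic genes, 5 fell and 2 rose with overexpression (median -0.08), with FOXM1 at -0.70 ± 0.05, CCNB1 at -0.35 ± 0.04 and TOP2A at 0.28 ± 0.05. With knockdown 2 fell and 3 rose (median 0.00, and -0.04 by library totals alone), with TPX2 at -0.33 ± 0.05, PLK1 at 0.40 ± 0.06 and CDC20 at 0.20 ± 0.06, which is close to the shares of all genes (19.9% higher and 19.1% lower). The part of cell cycle position in the levels of the variant histone genes was not tested.

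Of 69 replication-dependent histone symbols, 42 passed the filter on low counts, some of them only through a group where they were high, so no count of calls is given for them. The linker histone gene HIST1H1C averaged 134 CPM with overexpression, 77.7 CPM with knockdown and 46.2 CPM in control, with log2 fold changes of 1.54 ± 0.06 with overexpression and 0.76 ± 0.07 with knockdown. HIST1H2BD, an H2B gene, was at 1.55 ± 0.09 and 1.26 ± 0.10 in these comparisons. HIST2H2BE stood at 1.05 ± 0.09 with overexpression, and HIST1H4H and HIST1H2BK at 1.63 ± 0.13 and 0.79 ± 0.07 with knockdown. Many of these genes are close copies, and how reads were split among them is uncertain. Of 13 factors that transcribe, process or degrade stem-loop histone mRNAs, 4 fell and 0 rose with overexpression (median -0.09), near the 24.1% of all genes that were lower, among them SLBP, the stem-loop binding protein, at -0.15 ± 0.05, CPSF2 at -0.16 ± 0.05 and SYMPK at -0.17 ± 0.06. By library totals alone 1 fell and 1 rose. With knockdown 4 rose and 2 fell (median -0.01), beside 19.9% higher and 19.1% lower of all tested genes. ZNF473, SYMPK and UPF1 were at 0.35 ± 0.06, 0.34 ± 0.06 and 0.28 ± 0.05 with knockdown.

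**Figure D4:**
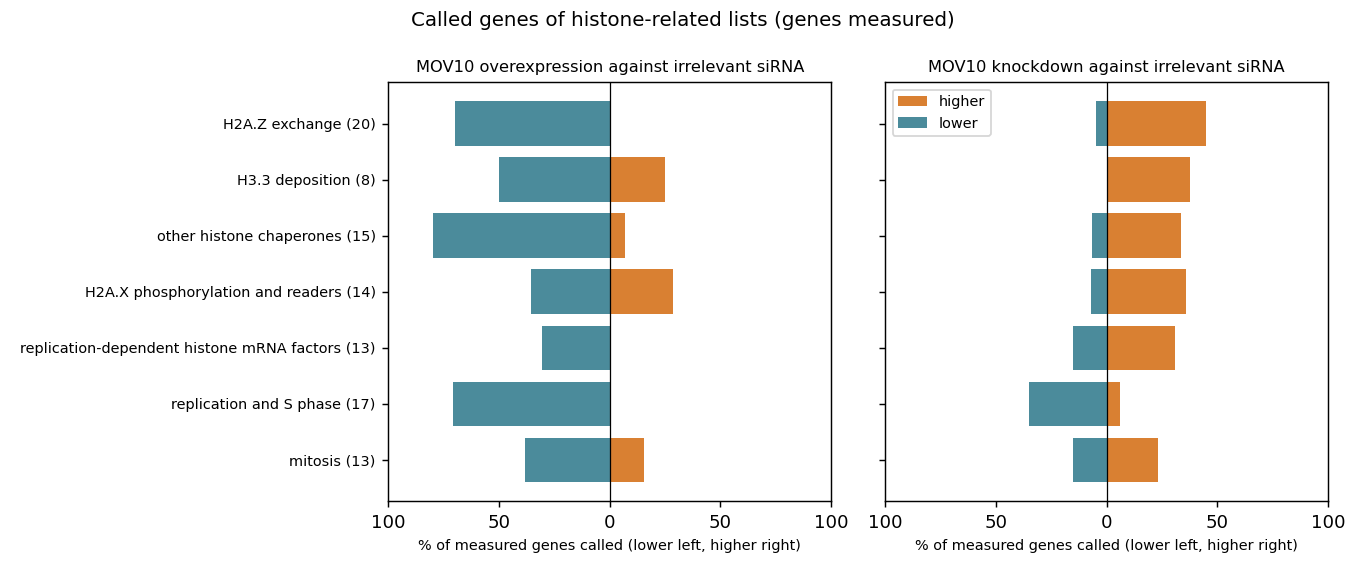
Share of the measured genes of each histone-related list that were called higher (orange, right) or lower (teal, left), for MOV10 overexpression against control and MOV10 knockdown against control; the number measured is in brackets. Of all tested genes 25.2% were higher and 24.1% lower with overexpression, and 19.9% and 19.1% with knockdown; H2A.Z exchange has 14 of 20 lower with overexpression and 9 of 20 higher with knockdown.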

How the data were processed

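The deposited values are whole counts of reads per gene symbol, made by the authors and not normalized. The submitters' processing notes name the build hg19 and these tools: HTSeq 0.5.3p9, TopHat2 2.0.8, SAMtools 0.1.18, Trimmomatic 0.22, CASAVA 1.8.2 and, without a version, edgeR. Libraries were assigned from their titles. Of 23368 symbols, 15254 passed filterByExpr (minimum count 10, minimum total 15). A single fit of all 8 libraries with TMM factors was tested with edgeR 4.0.16 (glmQLFit and glmQLFTest, Benjamini-Hochberg adjustment, called under 0.05) in R 4.3.3. Values after ± are SE for log2 fold changes and SD for levels. Replicate pairs had a chi-square per gene from 1.85 to 7.81, so no library was a duplicate. It was 1.85 to 1.94 between control libraries, 3.05 between the knockdown libraries and 3.08 to 7.81 between overexpression libraries. The fit shares its spread over all 8 libraries, so the p-values for knockdown against control depend on the overexpression libraries too. Without overexpression replicate 3, 7233 genes were called with knockdown, in place of 5943. Deviations of same-numbered libraries from their group means correlated between -0.085 and 0.090. The deviations of the 2 knockdown libraries mirror each other, so this check cannot decide whether the numbers pair libraries. The main fit used no block. Lengths, shared words and mRNA ends came from GENCODE 29 (GRCh38), and promoters from RefSeq (GRCh38.p14), which held all 9 genes. Intervals of fold changes come from the fit and its spread among libraries, and floors cover counting error only. The genes, lists and the rule for named genes (MOV10, the 9 genes, the 3 top genes by p in every list and comparison, the 5 genes most like the strongest responder of each comparison) were chosen with earlier results of these data known. The promoter motifs, the stem-loop, the shared 50-base words and the overlapping neighbour genes were chosen after the files had been seen. An item of the gene list, an item of the marker list and 1 planned ratio are not reported here, and counts leave them out. Alternatives used DESeq2 1.42.0 and limma 3.58.1.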

Additional observations from a re-analysis of the deposited data

How the results depend on the processing

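Across 19 alternatives, 354 of 399 fold changes of the 7 genes stayed on their side of the threshold (18 of these, none of them called, changed sign), 38 lost their call, 7 gained one and 0 called values reversed. H2AFV and H2AFY kept their overexpression calls in all 19. At an adjusted p under 0.01, 3 of the 7 were called with overexpression, 1 with knockdown and 2 between both. Over all 15254 tested genes these numbers were 5552, 3961 and 6828. Against a fold of 1.2 the numbers called were 2 with overexpression, 0 with knockdown and 1 between both, and over all genes 2350, 1700 and 3997. With only the 2 groups compared, 4 of the 7 were called with knockdown, and over all genes 7406 were called in place of 5943. Leaving out each library gave 4 to 5 called with overexpression, 1 to 3 with knockdown and 3 to 5 between both; over all genes, 3043 to 7233 were called with knockdown, the lowest without knockdown replicate 2, where the lone remaining library is assumed to vary like the other groups. With the replicate number as a block, 5, 1 and 3 of the 7 were called, against 5, 2 and 4, and over all genes 7117, 5169 and 8076; H2AFV with knockdown had an adjusted p of 0.101. The cause of these losses was not tested. The ratios within a library kept their sign and moved by less than the larger SD of both groups compared under each alternative; H3F3A to H3F3B could not be computed with reads at 0. H3F3A and H2AFJ had too few reads to test, and the cause was not tested.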

Other observations

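Of 15 further histone variant genes, outside the 9 genes described, 14 were in the table and 4 had enough reads to test. H3F3C, an intronless relative of H3F3B, stood at 57.4, 64.0 and 54.9 CPM with overexpression, 75.0 and 66.6 CPM with knockdown, and 75.0, 65.6 and 63.0 CPM in control. The overexpression range overlapped with that of control at its top, and the log2 fold change was -0.21 ± 0.07 (adjusted p = 0.0193, edgeR); by library totals alone the call was lost. It shares 21.8% of its 50-base words with H3F3B, so reads of both may be mixed. CENPA, the centromeric H3 variant, averaged 36.8 CPM with overexpression, 34.1 CPM with knockdown and 37.6 CPM in control and was not called in either comparison (adjusted p = 0.629 and 0.153, edgeR). HIST1H1T had only 3 to 22 reads per library. It averaged 0.637 CPM with overexpression, 0.748 CPM with knockdown and 0.355 CPM in control. Its log2 fold change was 0.82 ± 0.37 with overexpression and 0.98 ± 0.37 with knockdown. The gene lay close to the limit of the filter on low counts and may have passed it only through the treated groups, so no call is given for it. H2BFM, with 6 to 21 reads per library, was at -0.36 ± 0.36 with knockdown (adjusted p = 0.452, edgeR). The short H2A variants H2AFB1, H2AFB2 and H2AFB3 had no read in any library, and the oocyte linker histone gene H1FOO had 1 read in all.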
